A study of Rattus norvegicus with 48 samples.

Results

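Serum miRNAs were compared between insulin-treated and PTH-treated diabetic rats across all mature rat miRNAs in the deposited count files. The 9 serum samples of the ZDF genotype labelled Insulin (n = 4) or PTH (n = 5) were used, out of 32 serum and 48 serum and ulna bone samples in the series. Every file lists 763 mature miRNAs. In these 9 sera 456 of them were detected by 1 read or more (375 under insulin and 429 under PTH), and 151 were abundant enough to be tested. The animals were male Zucker diabetic fatty rats (ZDF fa/fa), which lack a functional leptin receptor and serve as a model of type 2 diabetes. All rats of the series carried a subcritical defect of the femur, and treatment ran for 12 weeks from an age of 11 weeks. Insulin was injected subcutaneously each day at a dose raised from 0.5 IU in week 1 to 13 IU in week 12, and PTH (parathyroid hormone, a bone-forming agent) at 75 µg/kg on 5 days a week. Neither group was untreated, so the comparison shows how the sera of both treatments differ and not which treatment moved a miRNA. Each sample came from a separate rat, and p-values measure the spread between these rats. The paper traces the insulin-treated and the PTH-treated rats to different earlier publications. A difference between those sources cannot be told apart from the treatment, and the p-values do not cover it. Sera of ZDF and WT rats given placebo (n = 5 each) served here only as a description, without a test. WT stands for Zucker lean rats (ZDF +/+), which are not diabetic. Placebo was injected subcutaneously each day, and the paper describes it as water for WT and as a vehicle solution for ZDF.

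Mature miRNAs are short RNAs that guide the silencing complex to messenger RNAs, mainly through the seed, bases 2 to 8 from the 5′ end. Those in serum come from blood cells, vessels and organs, packed in vesicles or bound to proteins, and the release of red cell content by hemolysis adds miR-451, miR-144 and miR-486. MiR-122 and miR-192 are abundant in liver and miR-375 in the endocrine pancreas. In bulk serum, fewer source cells and less RNA per cell cannot be told apart.

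The mature sequences below are those of the miRNAs that differed between the treatments, as they stand in RefSeq for rat assembly GRCr8, with the seed in capitals. The 4 shown first share no seed with another tested miRNA in the table, whereas miR-93-5p, miR-146a-5p, miR-29a-3p and miR-99b-5p are each followed by 1 or more tested miRNAs of the same seed. Sequences were matched for 134 of the 151 tested miRNAs and for 8 of the 10 that differed. MiR-15a-5p and miR-301a-3p also differed.
rno-miR-451-5p: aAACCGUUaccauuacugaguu
rno-miR-140-5p: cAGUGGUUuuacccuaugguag
rno-miR-144-3p: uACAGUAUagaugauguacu
rno-miR-10a-5p: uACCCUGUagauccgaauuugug
rno-miR-93-5p: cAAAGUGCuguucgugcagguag
rno-miR-20a-5p: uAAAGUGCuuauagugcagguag
rno-miR-17-5p: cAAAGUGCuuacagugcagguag
rno-miR-106b-5p: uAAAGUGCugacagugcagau
rno-miR-146a-5p: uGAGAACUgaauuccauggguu
rno-miR-146b-5p: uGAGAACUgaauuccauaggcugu
rno-miR-29a-3p: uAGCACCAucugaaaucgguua
rno-miR-29c-3p: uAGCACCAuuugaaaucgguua
rno-miR-29b-3p: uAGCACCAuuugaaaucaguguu
rno-miR-99b-5p: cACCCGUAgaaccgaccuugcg
rno-miR-100-5p: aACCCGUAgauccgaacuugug

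On GRCr8, miR-144-3p (chr10:63459446-63459465, plus strand) and miR-451-5p (chr10:63459585-63459606, plus strand) lie side by side, with 90 bases between their hairpins. MiR-93-5p (chr12:22156894-22156916, minus strand) lies within the span of Mcm7, a DNA replication gene, 120 bases from the miR-25 hairpin. MiR-140-5p (chr19:52375314-52375335, plus strand) lies within Wwp2, a ubiquitin ligase gene, and miR-99b-5p (chr1:67350070-67350091, plus strand) within Spaca6. MiR-29a-3p is at chr4:60617968-60617989 on the minus strand, miR-146a-5p at chr10:28350053-28350074 on the minus strand and miR-10a-5p at chr10:81779730-81779752 on the plus strand.

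The insulin libraries held 60344 to 113163 reads on miRNAs and the PTH libraries 65498 to 104745, which was 0.894% to 2.64% of all reads in these libraries. Reads on miRNAs per read of the 3 synthetic controls added at extraction ranged from 0.307 to 0.603 under insulin and from 0.145 to 2.05 under PTH. On the log2 scale the groups differed in this ratio by 0.022 (exact permutation p = 0.976, two-sided), and in the share of reads on miRNAs by −0.20 (exact permutation p = 0.627). PTH replicate 3 had 51220 control reads, the fewest of the 9 sera, and the ratio of 2.05. The other PTH sera lay at 0.145 to 0.538. Without PTH replicate 3 the groups differed in this ratio by 0.58 (exact permutation p = 0.229). Values given below with the extraction controls as the scale were not recomputed without it. In all 16 pairs of replicates counts differed beyond what sampling of reads gives (chi-squared over its degrees of freedom 14.4 or more). PTH replicates 1, 3 and 5 stood apart from the other sera in ways given beside the results below.

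Between the treatments, 10 of 151 miRNAs (6.62%) passed a false discovery rate (FDR) of 0.2, the threshold of the study, in edgeR's quasi-likelihood test. Of these, 6 (3.97% of those tested) were higher under insulin: miR-451-5p, miR-140-5p, miR-144-3p, miR-301a-3p, miR-15a-5p and miR-93-5p. The other 4 (2.65%) were lower under insulin: miR-10a-5p, miR-99b-5p, miR-146a-5p and miR-29a-3p. Their FDR lay between 0.140 and 0.150, no miRNA passed FDR < 0.05 in edgeR, and 29 had an unadjusted p under 0.05 (11 higher, 18 lower), whereas DESeq2 passed 7 at FDR < 0.05. The balance of directions depended on the scaling: with totals of miRNA reads in place of TMM, 32 miRNAs passed (5 higher, 27 lower), and with the extraction controls as the scale none did (17 at an unadjusted p under 0.05). The count depended on single rats. Without PTH replicate 1, insulin replicate 3 or insulin replicate 4 no miRNA passed FDR < 0.2 in edgeR, with 18, 9 and 15 at an unadjusted p under 0.05, whereas 27 passed without PTH replicate 3, 22 without PTH replicate 4 and 23 without insulin replicate 2. In these leave-one-out fits each of the 10 miRNAs kept its direction. They were chosen from the same sera, so this is not independent support for the calls.

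**Figure D1:**
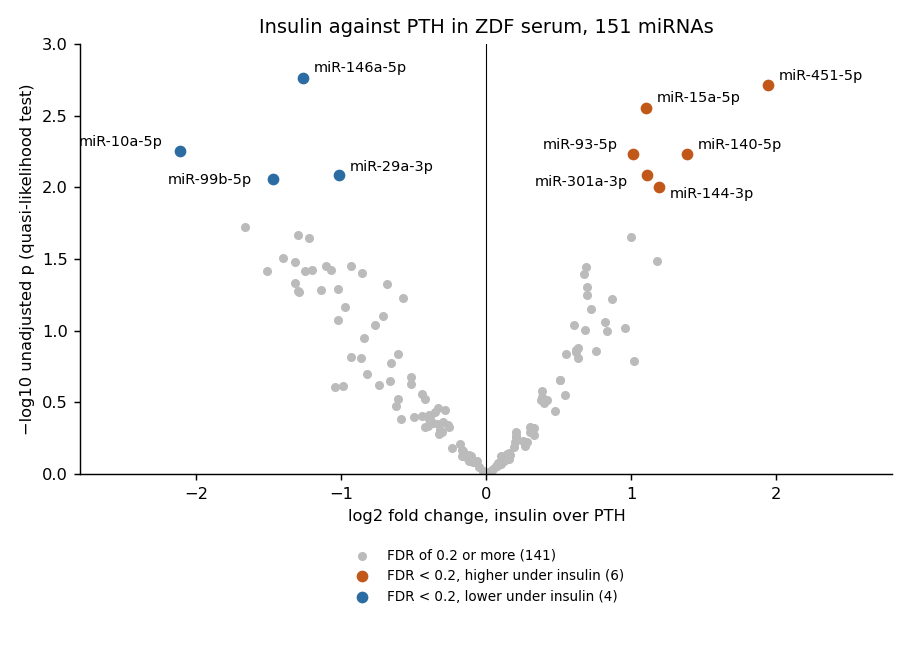
Log2 fold change of insulin over PTH (horizontal axis) against −log10 of the unadjusted p (vertical axis) for the 151 tested miRNAs, each a point. The 10 miRNAs at FDR < 0.2 are named, 6 higher under insulin in orange and 4 lower in blue, and miR-451-5p (1.94) and miR-10a-5p (−2.11) lie at the ends.

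Of 4 tested red cell miRNAs, miR-451-5p and miR-144-3p passed, both higher under insulin than under PTH. MiR-451-5p, the most abundant miRNA of red cells, was counted at 113755, 106089, 167647 and 182375 CPM (reads scaled to library size, after TMM normalization) in the insulin-treated rats and at 31495, 31997, 81231, 34278 and 6196 CPM in the PTH-treated rats. Every insulin value lay above every PTH value, with PTH replicate 3 closest and PTH replicate 5 far below the others. The means were 142466 ± 38186 (SD, n = 4) and 37039.5 ± 27240 (SD, n = 5), a log2 fold change of 1.94 (SE 0.52, FDR 0.140 in edgeR, exact permutation p = 0.0159 where the smallest possible is 0.00794).

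MiR-144-3p, made from the same locus, was at 6754, 7345, 10378 and 9497 CPM under insulin and at 2900, 3154, 7983, 2928 and 1624 CPM under PTH. PTH replicate 3 reached into the insulin range and the other PTH values lay below it. Its log2 fold change was 1.19 (SE 0.40, FDR 0.150). MiR-486, also a red cell miRNA, did not pass, with a log2 fold change of 1.00 (95% interval 0.16 to 1.83, FDR 0.233), and neither did miR-144-5p, the other arm of miR-144 (0.54, SE 0.48, FDR 0.603). Of 5 listed red cell miRNAs all had reads and 4 were tested. Of these, 2 passed as higher under insulin and 2 did not pass, with a median log2 fold change of 1.10 beside −0.09 over all 151. When the libraries were scaled to the extraction controls in place of TMM, the median of all miRNAs shifted by −0.69, and miR-144-3p, miR-486 and miR-144-5p fell below 0 (−0.26, −0.33 and −0.83) while miR-451-5p stayed above it (0.43), and the list median was −0.30.

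The red cell miRNAs together took 24.1%, 23.0%, 27.3% and 27.0% of the miRNA reads in the insulin-treated rats and 10.8%, 10.7%, 22.4%, 10.8% and 5.13% in the PTH-treated rats. Each insulin value was above each PTH value. MiR-451-5p over miR-23a-3p, used in serum as a sign of hemolysis, gave log2 ratios of 3.50, 3.18, 3.60 and 3.79 under insulin and of 1.55, 1.11, 4.29, 1.04 and −1.43 under PTH. The insulin values lay close together, and the PTH group held both the highest and the lowest value of the 9 sera. The groups differed by 2.21 (exact permutation p = 0.0635), by 2.95 without PTH replicate 3 (exact permutation p = 0.0286) and by 1.52 without PTH replicate 5 (exact permutation p = 0.143).

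With this ratio as a covariate, 5 miRNAs passed FDR < 0.2 in edgeR, all lower under insulin: miR-146a-5p (−1.57, FDR 0.0898), let-7f-5p (−1.69, FDR 0.0989), miR-146b-5p (−1.63, FDR 0.176), miR-10a-5p (−2.51, FDR 0.190) and miR-200a-3p (−2.49, FDR 0.190). Let-7f-5p, miR-146b-5p and miR-200a-3p were picked out once the values were known. None of the 6 miRNAs higher under insulin passed, and miR-451-5p, which is itself part of the ratio, had a log2 fold change of 0.87 (FDR 0.275), miR-144-3p of 0.49 (FDR 0.423) and miR-93-5p of 0.65 (FDR 0.299). MiR-15a-5p (0.88, FDR 0.275), miR-301a-3p (1.02, FDR 0.281) and miR-140-5p (1.02, FDR 0.321) kept more of their size. MiR-99b-5p (−1.62, FDR 0.251) and miR-29a-3p (−0.84, FDR 0.275) did not pass either. Hemolysis in the tubes and a difference in the rats' red cells cannot be told apart with these values.

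**Figure D2:**
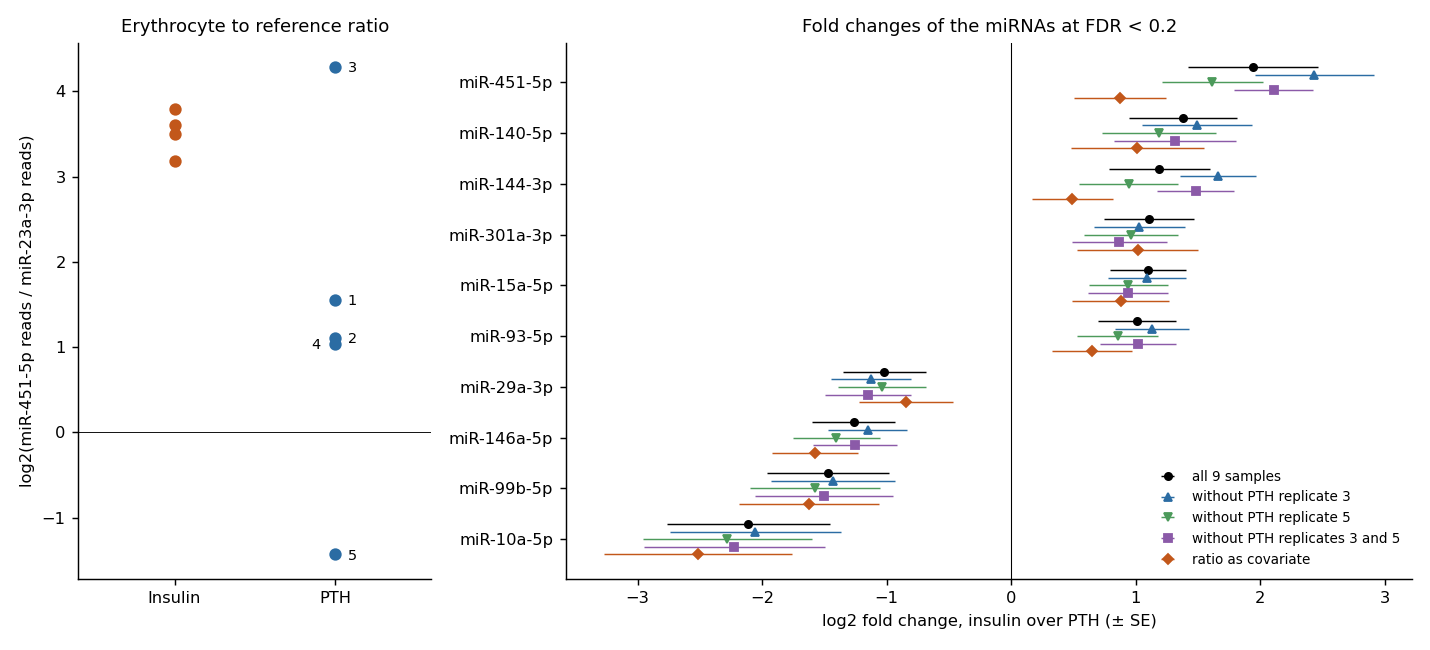
Left, log2 of miR-451-5p reads over miR-23a-3p reads in each serum, with the PTH replicates numbered; the insulin sera lie between 3.18 and 3.79 and the PTH sera between −1.43 and 4.29. Right, log2 fold change (insulin over PTH, horizontal axis, ± SE) of the 10 miRNAs at FDR < 0.2 with all 9 samples, without PTH replicate 3, without PTH replicate 5, without both, and with the ratio as a covariate, where miR-451-5p falls to 0.87 and miR-146a-5p lies at −1.57.

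MiRNAs of the miR-15/16 family and of the miR-17-92 cluster and its paralogs are abundant in blood cells and act on cell cycle genes. Of those tested, 1 of 5 and 1 of 14 passed as higher under insulin. MiR-15a-5p was at 14804, 13298, 18378 and 19245 CPM under insulin and at 5865, 8697, 7925, 10843 and 4974 CPM under PTH. The groups did not overlap. The log2 fold change was 1.10 (SE 0.31, FDR 0.140 in edgeR, exact permutation p = 0.0159). Of its family, 5 miRNAs were tested and miR-15a-5p alone passed; the median log2 fold change was 0.63, miR-16-5p had 0.69 (FDR 0.246) and miR-497-5p −0.61 (FDR 0.610). With the extraction controls as the scale 1 of the 5 lay above 0 and the median was −0.33, beside −0.78 over all 151.

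MiR-93-5p, of the miR-106b-25 cluster, was at 54967, 35865, 66784 and 53809 CPM under insulin and at 21789, 27243, 36032, 28113 and 17980 CPM under PTH. PTH replicate 3 lay just above insulin replicate 2, and all other values were separated. The log2 fold change was 1.01 (SE 0.32, FDR 0.146). Its cluster neighbours did not pass, with 0.83 for miR-25-3p (FDR 0.328) and 1.02 for miR-106b-3p (FDR 0.431). MiR-25-3p lay at 104727 CPM in PTH replicate 3 against 14981 to 39895 in the other PTH-treated rats. Without PTH replicate 3 it had a log2 fold change of 1.39 (FDR 0.0578) and miR-106b-3p of 2.10 (FDR 0.0578), and with the ratio as a covariate −0.01 and −0.04.

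Of 14 tested miRNAs of the miR-17-92 cluster and its paralogs, miR-93-5p alone passed. Of the 14, 12 had a log2 fold change above 0, and the median was 0.61. With the extraction controls as the scale 6 of 14 lay above 0 and the median was −0.26, beside −0.78 over all 151. MiR-20a-5p, with the seed of miR-93-5p, was at 2626, 2887, 2853 and 2534 CPM under insulin and at 849, 1942, 1281, 2178 and 2154 CPM under PTH. These groups did not overlap, but the miRNA did not pass (0.70, SE 0.34, FDR 0.249). MiR-17-5p (0.61, FDR 0.322) and miR-106b-5p (0.62, FDR 0.413), of the same seed, did not pass either. MiR-19b-3p, a further abundant member, had 0.01 (FDR 0.989).

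MiR-140-5p, a miRNA of cartilage, was at 256, 342, 506 and 406 CPM under insulin and at 78.4, 235, 193, 131 and 85.5 CPM under PTH. The groups did not overlap, on 6 to 49 reads a library. Its log2 fold change was 1.38 (SE 0.43, FDR 0.146, exact permutation p = 0.0159). The other arm of the hairpin, miR-140-3p, was far more abundant (means 25611 and 22272 CPM) and did not pass (0.20, 95% interval −0.43 to 0.83, FDR 0.768). The reads of miR-140-5p relative to miR-140-3p in the same serum, which no scaling between libraries affects, were higher under insulin by 1.25 on the log2 scale (exact permutation p = 0.0476, 0.238 after adjustment over 10 such ratios).

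MiR-301a-3p, of the miR-130 family, was at 1330, 1368, 2460 and 2437 CPM under insulin and at 758, 1024, 732, 1285 and 607 CPM under PTH. The highest PTH value came close to the lowest insulin value without reaching it. The log2 fold change was 1.11 (SE 0.36, FDR 0.146).

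Among the miRNAs lower under insulin, miR-146a-5p, which dampens inflammatory signalling in leukocytes, had the smallest p-value of all 151. It was at 1484, 1659, 920 and 1451 CPM under insulin and at 4050, 3036, 4410, 2678 and 2384 CPM under PTH. Every insulin-treated rat lay below every PTH-treated rat. The means were 1378 ± 319 (SD, n = 4) and 3312 ± 879 (SD, n = 5), a log2 fold change of −1.27 (SE 0.33, FDR 0.140 in edgeR), and the exact permutation p was 0.00794, the smallest possible. It passed FDR < 0.2 in 18 of 22 alternative fits, the most of the 10 miRNAs. Its seed mate miR-146b-5p had −0.82 (SE 0.62, FDR 0.515). Over all 151 miRNAs, 4 had the smallest possible exact permutation p, and the lowest exact permutation p after adjustment was 0.266.

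The other leukocyte miRNAs did not pass. Of 7 tested on that list, miR-146a-5p was lower under insulin. The 6 others ranged from −0.72 (miR-150-5p, a lymphocyte miRNA, FDR 0.306) to 0.26 (miR-142-3p, FDR 0.883), with a list median of −0.32. The median was −0.56 without PTH replicate 1, and 0.44 with the ratio as a covariate, where 5 of 7 lay above 0. MiR-223-3p, of neutrophils and platelets, was the most abundant of them and had −0.02 (95% interval −0.81 to 0.77).

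MiR-29a-3p, whose family targets collagen messenger RNAs, was at 16645, 21466, 11081 and 17775 CPM under insulin and at 53023, 31162, 24535, 26066 and 34747 CPM under PTH. The groups did not overlap, and PTH replicate 1 was highest. The log2 fold change was −1.02 (SE 0.33, FDR 0.146 in edgeR, exact permutation p = 0.00794). MiR-29c-3p (−0.61, FDR 0.413), which differs from it by 1 base of 22, and miR-29b-3p (−0.67, FDR 0.535) did not pass, and reads of such close sequences may be shared in the counting.

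MiR-10a-5p, encoded in a Hox gene cluster, showed the largest difference. It was at 136, 367, 103 and 290 CPM under insulin and at 2404, 482, 1136, 238 and 590 CPM under PTH. The groups overlapped through PTH replicate 4, and PTH replicate 1 was far above the rest. The log2 fold change was −2.11 (SE 0.65, FDR 0.146 in edgeR, exact permutation p = 0.0556), and −1.51 without PTH replicate 1 (FDR 0.256).

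MiR-99b-5p, clustered with miR-125a, was at 68.2, 253, 82.7 and 96.7 CPM under insulin and at 575, 271, 404, 238 and 291 CPM under PTH. Insulin replicate 2 fell within the PTH range and the other insulin values were lower. The log2 fold change was −1.47 (SE 0.49, FDR 0.146) on 4 to 44 reads a library. Its neighbour miR-125a-5p had −1.32 (FDR 0.233) and its seed mate miR-100-5p −0.93 (FDR 0.419).

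**Figure D3:**
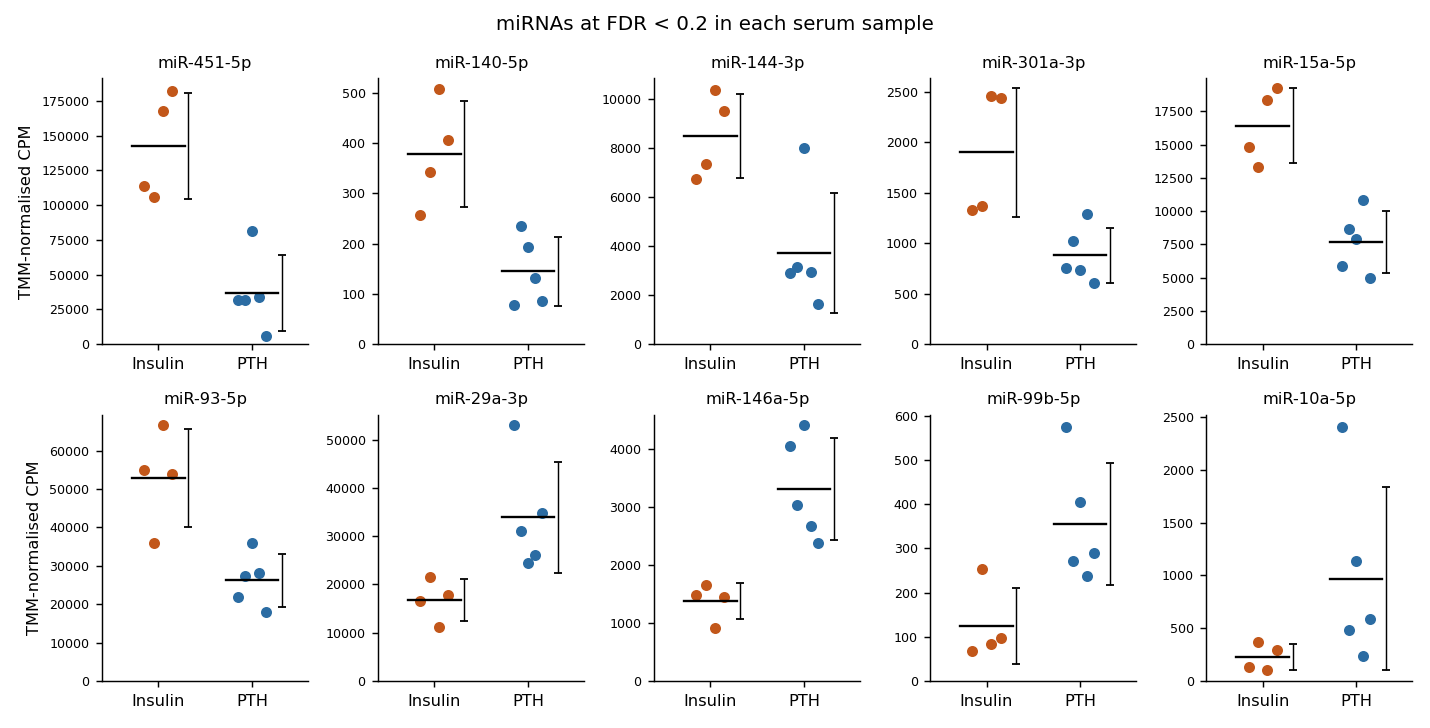
TMM-normalised CPM (vertical axes, each from 0) in every serum sample for the 10 miRNAs at FDR < 0.2, insulin in orange and PTH in blue; lines are group means and bars 1 SD (n = 4 and n = 5). The groups do not overlap for 6 of them, and PTH replicate 1 is the highest point of miR-10a-5p (2404), miR-99b-5p (575) and miR-29a-3p (53023).

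PTH replicate 1 was the highest of the 9 sera for miR-10a-5p, miR-99b-5p and miR-29a-3p, and it also had the highest share of reads on muscle miRNAs. The 4 smooth muscle miRNAs, miR-143 and miR-145 with both arms, all had reads and took 9.28% of its miRNA reads, against 1.41% to 3.20% in the other PTH-treated rats and 0.545% to 2.83% under insulin. The striated muscle miRNAs, of which 11 of 16 had reads, took 2.75% of it against 0.023% to 1.09% in the other PTH sera and 0.103% to 0.730% under insulin. Their part in the differences was not tested. Without PTH replicate 1 all 10 miRNAs lost their call, and the log2 fold changes were −1.51 for miR-10a-5p, −1.28 for miR-99b-5p and −0.84 for miR-29a-3p, each with an FDR of 0.256. None of the tested smooth or striated muscle miRNAs passed. MiR-143-3p was at 70854 CPM in PTH replicate 1 and at 3721 to 20988 CPM in the other 8 sera, with a log2 fold change of −1.29 (FDR 0.246).

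Among all 151 miRNAs, the groups did not overlap for 9 (5.96%), 5 higher and 4 lower under insulin. Of these, 6 are among the 10 above, and miR-20a-5p, miR-21-5p and miR-28-3p did not pass; miR-21-5p and miR-28-3p were picked out once the values were known. MiR-21-5p, an abundant miRNA of many tissues, was at 29095, 25253, 20415 and 31257 CPM under insulin and at 44036, 37893, 37611, 36873 and 41079 CPM under PTH. All insulin values were lower, at a log2 fold change of −0.58 (SE 0.28, FDR 0.253). MiR-28-3p had −0.86 (SE 0.38, FDR 0.233).

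None of the liver miRNAs passed. All 8 listed liver miRNAs had reads and 4 were tested, with a median log2 fold change of −1.04 (−0.23 with the ratio as a covariate). MiR-122-5p, the most liver-specific of them, was at 188, 494, 279 and 174 CPM under insulin and at 1437, 365, 664, 405 and 675 CPM under PTH. Insulin replicate 2 overlapped the PTH range. Its log2 fold change was −1.30 (SE 0.51, 95% interval −2.38 to −0.22, FDR 0.233), and −0.92 without PTH replicate 1 (FDR 0.372).

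MiR-192-5p, of liver and kidney, was at 4554, 4990, 1509 and 3482 CPM under insulin and at 6571, 9003, 2003, 13521 and 7905 CPM under PTH. PTH replicate 3 was among the low values and the other PTH-treated rats were above all insulin-treated ones. Its log2 fold change was −1.10 (SE 0.48, FDR 0.233), −1.36 without PTH replicate 3 (FDR 0.0578) and −0.10 with the hemolysis ratio as a covariate (FDR 0.935). MiR-122-3p had −0.98 (SE 0.50, FDR 0.279) and miR-802-5p, a miRNA raised in liver in obesity, −0.50 (SE 0.58, FDR 0.714). MiR-802-5p turned to 1.13 with the covariate (FDR 0.327).

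Of 12 listed pancreas miRNAs, 6 had no read and 2 were tested. MiR-375-3p, of islet cells, was at 1586, 1013, 951 and 2186 CPM under insulin and at 1855, 4495, 1059, 4511 and 949 CPM under PTH. The PTH group held both the 2 highest values and the lowest. Its log2 fold change was −0.85 (SE 0.50, FDR 0.361), and miR-7a-1-3p had −0.01 (FDR 0.989).

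A further list, called the insulin list here, holds 7 miRNAs that the study chose for a difference between ZDF and WT placebo sera and an opposite one under insulin. The choice was made on libraries that include these insulin-treated rats, so the list is not independent of them. Of these, 6 were tested and none passed FDR < 0.2 between insulin and PTH, with a median log2 fold change of −0.91. They are miR-122-5p, miR-192-5p, miR-122-3p, miR-375-3p and miR-802-5p, given above, and miR-27a-5p, which had 0.03 (95% interval −1.33 to 1.40, FDR 0.989). MiR-31a-5p was too rare to be tested, with 6, 9, 7 and 2 reads under insulin and 15, 10, 9, 24 and 25 under PTH. The groups met at 9 reads.

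The remaining lists held few or no calls. The bone and cartilage list had 6 tested miRNAs, of which miR-140-5p was higher under insulin. Its median was −0.40 (−0.19 without PTH replicate 1 and 0.17 with the ratio as a covariate). MiR-199a-3p, of osteoblasts and fibroblasts, had −1.51 (FDR 0.233). None of 3 tested miR-200 family miRNAs, of epithelia, passed, with a median of −1.40; miR-200a-3p was at 2769 CPM in PTH replicate 1 against 196 to 1088 CPM in the other 8 sera, and its log2 fold change went from −1.67 (FDR 0.233) to −0.96 (FDR 0.372) without that rat. None passed among 10 let-7, 7 miR-30, 7 miR-23/27/24 or 5 platelet and endothelium miRNAs, whose medians were 0.17, −0.52, −0.07 and 0.06. The let-7 median was 0.45 without both PTH samples of extreme ratio, −0.21 with the covariate and −1.14 with the extraction controls as the scale. The miR-30 median was −1.58 and the miR-23/27/24 median −0.73 with the extraction controls. That of the platelet and endothelium list was −0.67 with them and −0.15 without PTH replicate 3. The medians over all tested miRNAs were −0.78 with the extraction controls and −0.12 without PTH replicate 3. Let-7a-1-3p and let-7c-2-3p had identical counts in each library and cannot be told apart.

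**Figure D4:**
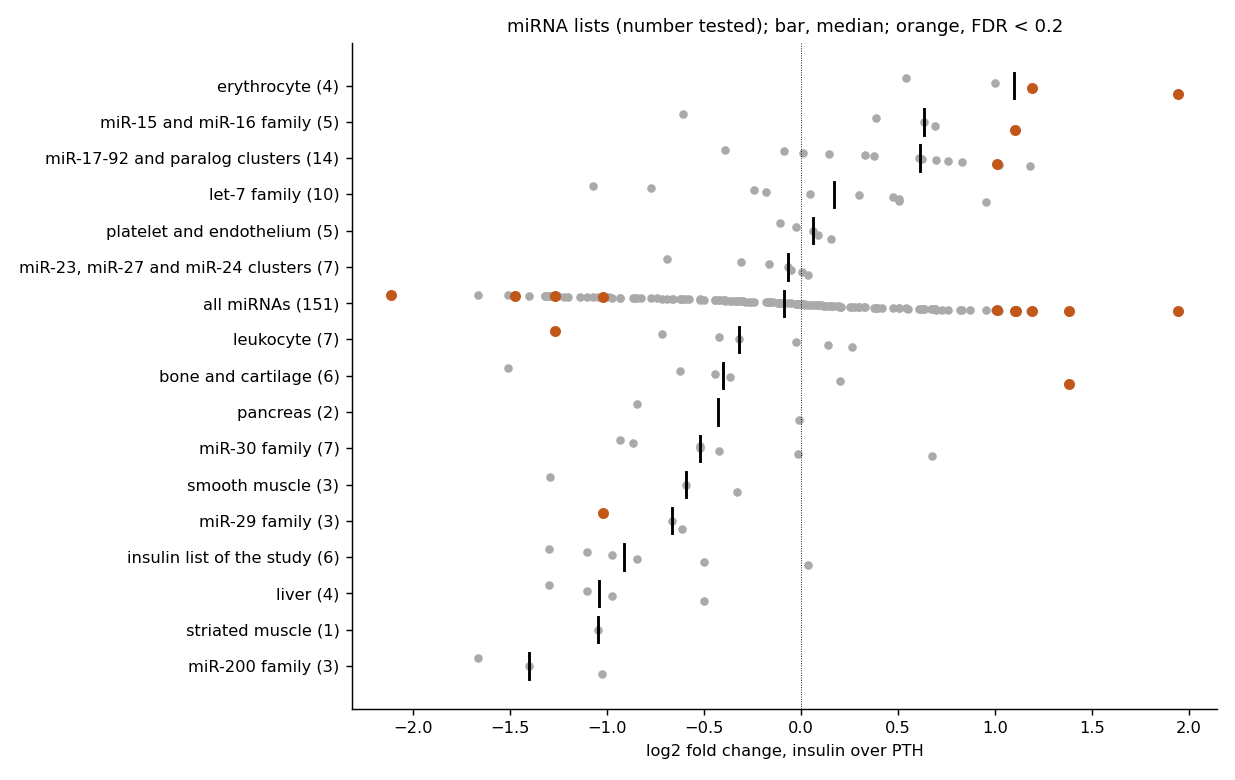
Log2 fold change of insulin over PTH (horizontal axis) of each tested miRNA by list, with the number tested in brackets; black bars are medians and orange points passed FDR < 0.2. The red cell list lies highest (median 1.10) and the miR-200 family lowest (median −1.40), with all 151 miRNAs at −0.09. With the extraction controls as the scale the red cell median was −0.30 and that of all 151 was −0.78.

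The reads of a miRNA relative to its other arm or to a seed mate were compared within each serum for the 10 such pairs among the 10 miRNAs. None of the differences passed after adjustment over the 10 ratios (lowest adjusted exact permutation p = 0.238). MiR-144-3p relative to miR-144-5p was higher under insulin by 0.64 on the log2 scale and miR-93-5p relative to miR-93-3p by 1.28, with unadjusted exact permutation p = 0.0476 and p = 0.0714. For the 7 pairs that share a seed the differences ran from −1.06 (miR-99b-5p to miR-100-5p, exact permutation p = 0.103) to 0.42 (miR-93-5p to miR-106b-5p, exact permutation p = 0.317).

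Placebo-treated ZDF and WT sera (n = 5 each), normalised together with both groups, were set beside these levels as a description without a test. For all 10 miRNAs the PTH mean was nearer to the ZDF placebo mean than the insulin mean was, on the scale log2(CPM + 1). The same held for every other miRNA set beside placebo, such as miR-7a-1-3p (0.12 above under insulin, 0.04 below under PTH). It is therefore not particular to the 10, and the share over all tested miRNAs was not determined. MiR-451-5p lay at 2.55 above the placebo mean under insulin and 0.21 above it under PTH, miR-93-5p at 0.97 above and 0.09 below, and miR-146a-5p at 0.92 below and 0.30 above. The distances were most alike for miR-10a-5p, 0.96 below under insulin and 0.85 above under PTH. For 8 of the 10 the placebo mean lay between the means of both treatments.

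The WT placebo sera differed among themselves in miR-451-5p, with a mean of 65159 ± 65627 CPM (SD, n = 5) against 28162 ± 13226 (SD, n = 5) in ZDF placebo, 40197 ± 32723 (SD, n = 5) under PTH and 157655 ± 42359 (SD, n = 4) under insulin. MiR-122-5p had means of 311 ± 152 under insulin, 744 ± 377 under PTH, 760 ± 431 in ZDF placebo and 197 ± 79.1 CPM in WT placebo (SD, n = 4, 5, 5 and 5). MiR-27a-5p was at 525 ± 369 under insulin and 500.0 ± 459 under PTH, both above the 139 ± 87.1 CPM of ZDF placebo and close to the 516 ± 177 of WT placebo (SD, n = 4, 5, 5 and 5). MiR-375-3p had means of 1583 ± 621, 2705 ± 1851, 3143 ± 1508 and 636 ± 633 CPM in the same order. By mean CPM, miR-122-5p, miR-122-3p, miR-192-5p, miR-802-5p and miR-375-3p all lay in the order WT placebo, insulin, PTH and ZDF placebo. The study chose them for levels in ZDF placebo above WT placebo and above insulin. That part of the order therefore follows from the choice. By mean log2(CPM + 1), miR-122-5p under PTH lay 0.36 above ZDF placebo. MiR-802-5p was nearly equal under insulin (8.72) and PTH (8.74) on that scale. None of them passed between insulin and PTH in the fit that gave the calls above, and some did with other processing, given below.

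**Figure D5:**
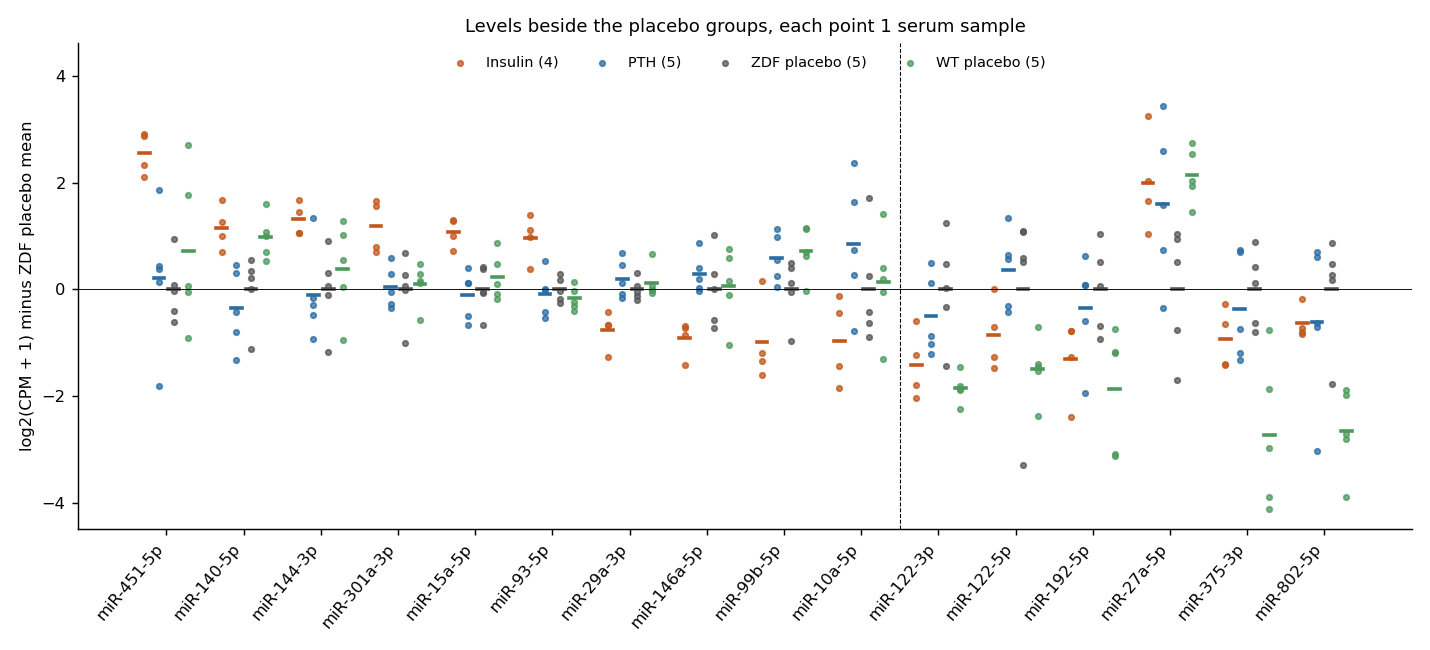
Log2(CPM + 1) of each serum minus the ZDF placebo mean (vertical axis) for the 10 miRNAs at FDR < 0.2 (left of the dashed line) and the 6 tested miRNAs of the insulin list (right); points are rats and lines group means. PTH means of the 10 and of the 6 lie nearer to 0 than insulin means, as for miR-451-5p (0.21 and 2.55).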

How the data were processed

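Small RNA libraries of serum were trimmed by the authors with cutadapt and mapped with bowtie and miRDeep2, first to the genome of the rat, then to miRBase. The deposited counts are whole, unnormalised reads per mature miRNA, so near-identical miRNAs can share reads. The RPM values deposited by the authors, scaled to all reads of a library, gave the library totals. Samples were grouped by their labels. Counts of the 9 sera were filtered with filterByExpr, TMM-normalised and tested with edgeR 4.0.16 (quasi-likelihood, legacy = TRUE, robust = FALSE) in R 4.3.3. FDR is the Benjamini-Hochberg adjusted p over 151 miRNAs, and the prior degrees of freedom were 8.08. SE is the log2 fold change divided by the root of F. Exact permutation tests were two-sided over 126 assignments of log2(CPM + 1), and ratios had a pseudocount of 0.5. The depth, 60344 to 113163 miRNA reads a library, leaves miRNAs of under about 100 CPM at a few reads. The fit was tested on simulated data.

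The miRNAs given by name were those with the 12 smallest p-values in each direction at FDR < 0.2 (all, where fewer), of these the 3 per direction with the largest changes and no overlap, all tested members of the red cell, liver, pancreas and insulin lists, and up to 4 abundant members of other lists; neighbours in clusters, seed mates, the ends of a list's range and all further miRNAs were picked out once their values were known. The comparison, members and lists were chosen with earlier results of these data known. Alternatives covered scaling, filters, DESeq2 1.42.0, the groups in the fit, a ratio covariate, the FDR threshold and each replicate left out. Independent filtering in edgeR took the abundance cut that gave the most calls, so its counts are the highest over the cuts tried. Leaving out both PTH samples with extreme ratios was chosen after seeing the data.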

Additional observations from a re-analysis of the deposited data

Results flagged for a closer look

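Each named miRNA and library measure was checked for a sample far from the others of its group, over 44 group and measure combinations, where chance flags about 1 in 20. In insulin replicate 2, miR-144-5p was at 494 CPM, against 928 to 992 CPM in the other insulin-treated rats.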

How the results depend on the processing

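Depth limits miR-140-5p, miR-99b-5p and miR-10a-5p, which were counted at fewer than 10 reads in at least 1 library, and the number of rats limits every call. No paired analysis was made because the insulin and PTH sera came from separate rats. The 10 calls at FDR < 0.2 became 32 with totals of miRNA reads and no TMM (5 higher, 27 lower; the median of all miRNAs shifted by −0.31), 29 with DESeq2 (11 higher, 18 lower), 17 with a filter of 1 read (3 higher, 14 lower), 31 with this and independent filtering (8 higher, 23 lower), 20 with filterByExpr and independent filtering (10 higher, 10 lower), 5 with the ratio covariate (0 higher, 5 lower), 17 without both PTH samples of extreme ratio, a choice made after seeing the data, 0 at FDR < 0.05 and 0 with the extraction controls as the scale (17 at an unadjusted p under 0.05 in edgeR). All 10 calls were shared with DESeq2, 9 with the totals, and 2 with the covariate. The cause of these changes was not tested. Some named miRNAs outside the 10 calls passed FDR < 0.2 in an alternative. With DESeq2 these included miR-122-5p (0.135), miR-486 (0.168) and miR-192-5p (0.175). With totals of miRNA reads they included miR-122-5p (0.155), miR-192-5p (0.155), miR-122-3p (0.183) and miR-375-3p (0.183). When each rat was left out, the count ran from 0 to 27, the difference in the miR-451-5p to miR-23a-3p ratio from 1.52 to 2.95, in miRNA reads per control read from −0.38 to 0.58 and in the share of reads on miRNAs from −0.35 to 0.041. Of the 10 miRNAs, miR-93-5p (−0.069) and miR-144-3p (−0.26) changed direction with the extraction controls and none did under another alternative. Of the others, miR-144-5p turned to −0.83 and miR-486 to −0.33 with the extraction controls, and with the covariate miR-144-5p was at −0.26, miR-802-5p at 1.13, miR-7a-1-3p at 0.75 and miR-27a-5p at −0.70. MiR-7a-1-3p and miR-27a-5p lay near 0 and changed sign often: miR-7a-1-3p was at 0.030 with RLE size factors, 0.089 without the erythrocyte list, 0.022 without both PTH samples of extreme ratio and −0.20 to 0.20 in the leave-one-out fits, and miR-27a-5p at −0.28 with totals, −1.33 with the extraction controls, −0.033 with a filter of 1 read with or without independent filtering, and −0.43 to 0.58 in the leave-one-out fits.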
